A study of Mus musculus with 36 samples.

Results

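Dbp, Tef, Hlf, Nfil3, Ciart, Bhlhe40, Bhlhe41 and Rora encode transcription regulators on the output side of the circadian clock, and Sphk2 is the gene whose exons overlap those of Dbp on the opposite strand. These 9 genes were found by symbol among the 51912 gene IDs counted in each muscle, and all 9 passed the filter on low counts in both muscles, with 26 or more reads in every library. The first 8 were listed by name, with earlier results of these data known. Sphk2 was chosen by its measured change between genotypes in both muscles, so its genotype values are a description without a test. RNA-seq was performed on the tibialis anterior (TA), a fast muscle, and the soleus, a muscle rich in slow fibers, from male WT and ∆Ig3-MuSK mice on a C57BL/6 background at 3 months of age. The ∆Ig3-MuSK mice were homozygous for a CRISPR-Cas9 deletion of Musk exons 6 and 7, present in all tissues, which removes the BMP-binding Ig3 domain of the MuSK receptor. The labels name no treatment, and each of the 4 groups (TA WT, TA ∆Ig3-MuSK, soleus WT, soleus ∆Ig3-MuSK) had 9 libraries, 36 in all, each from 1 muscle.

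The molecular clock is a feedback loop in which ARNTL (BMAL1) and CLOCK or NPAS2 bind E-box sequences and drive genes that include their own repressors, the Period and Cryptochrome genes. The loop also drives output factors. DBP, TEF and HLF are PAR bZIP activators that bind D-box sequences, and NFIL3 (E4BP4) competes for the same sites as a repressor. CIART (CHRONO), BHLHE40 and BHLHE41 (DEC1 and DEC2) repress E-box-driven transcription, and RORA activates genes with ROR elements, which the NR1D nuclear receptors repress. In skeletal muscle many metabolic genes follow this clock, so levels of its output genes depend on the hour of collection. The hour at which the muscles were collected is not given in the sources used here.

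Total counts per library were 49287472 to 78660422 in the TA and 43492062 to 60426556 in the soleus, from libraries without strand information. The tissue labels matched the fiber markers: the summed level of 7 slow-fiber genes was 72.2 to 207 CPM (counts relative to the TMM-scaled size of each library) in the TA libraries and 20040 to 29330 CPM in the soleus libraries. Nerve, tendon and other non-fiber markers were present in all groups, and in bulk muscle fewer cells of a type and less RNA per cell cannot be told apart. Musk itself averaged 4.25 ± 0.948 CPM (SD, n = 9) in WT and 3.09 ± 0.391 CPM in ∆Ig3-MuSK TA, and 15.2 ± 1.82 and 11.3 ± 3.29 CPM in WT and ∆Ig3-MuSK soleus. A count over the whole gene includes exons outside the deletion and so does not check the genotype. The numbers in the labels of ∆Ig3-MuSK libraries were all lower than those of WT libraries. What the number stands for is not given in the sources used here, and its part in a genotype difference cannot be told apart from genotype.

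The PAR bZIP activators and Ciart rose in ∆Ig3-MuSK soleus, and Dbp rose in both muscles. In the soleus, 5 of the 8 tested genes were upregulated (Dbp, Ciart, Hlf, Tef and Bhlhe41) and 0 were downregulated, by edgeR's quasi-likelihood test at an adjusted p under 0.05 and at least a 1.2-fold change. Upregulated genes made up 0.365% of the 19439 genes tested in the soleus, and genes called in either direction made up 0.952%. The 8 genes were listed with earlier results of these data known, so such shares are given for scale only. In the TA, Dbp was the only one of the 8 called, where 0.0149% of 20075 genes tested were called. At an unadjusted p under 0.05 there were 5 of the 8 in the TA and 7 of the 8 in the soleus. Over all genes tested 24.1% in the TA and 18.5% in the soleus had such a p. The interaction of genotype with muscle passed the threshold for 0 of 20841 genes (0%) by edgeR's test. An unadjusted p under 0.05 was found for 5193 of them (24.9%). DESeq2 called the interaction for 855 of 41704 genes with a read (2.05%). Of the 8 genes it was called for 0 by edgeR's test, with 2 (Bhlhe41 and Tef) at an unadjusted p under 0.05, and for Bhlhe41 by DESeq2.

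**Figure D1:**
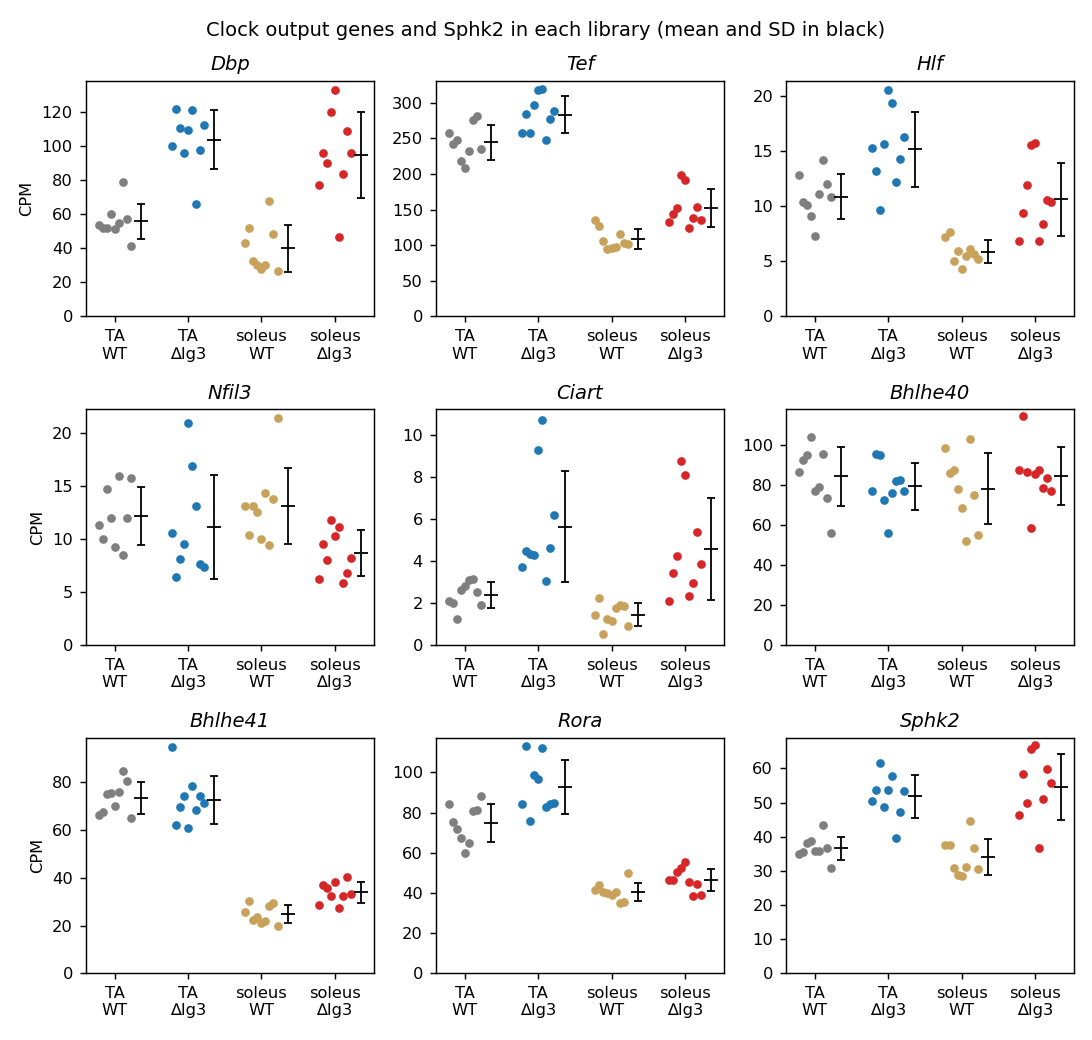
Level of each gene in CPM (y axis, from 0) in the 9 libraries of each of the 4 groups (points), with the mean and SD in black. Dbp sat higher in 8 of 9 ∆Ig3-MuSK libraries than in any WT library of the same muscle, while Tef, Bhlhe41 and Rora separated the TA from the soleus in both genotypes.

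Dbp, the best known PAR bZIP output of the clock, ranged from 41.7 to 78.8 CPM in WT TA (median 54.0) and from 66.1 to 122 CPM in ∆Ig3-MuSK TA (median 109). Soleus levels ranged from 26.8 to 67.7 CPM in WT (median 32.8) and from 46.4 to 133 CPM in ∆Ig3-MuSK (median 95.8). In each muscle 8 of 9 ∆Ig3-MuSK libraries lay above the highest WT library, and 1 ∆Ig3-MuSK library fell within the WT range. Dbp rose in the TA by 0.90 on the log2 scale (standard error, SE, 0.11, adjusted p = 0.0012) and in the soleus by 1.23 (SE 0.19, adjusted p = 0.0135). The Dbp call was made in each of the 18 fits per muscle that left out 1 library.

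Tef, the PAR bZIP factor with the most reads here, ranged from 208 to 281 CPM in WT TA (median 242) and from 248 to 319 CPM in ∆Ig3-MuSK TA (median 284). Its soleus range was 94.9 to 136 CPM in WT (median 103) and 124 to 199 CPM in ∆Ig3-MuSK (median 144). The genotypes overlapped in both muscles, with 5 of 9 ∆Ig3-MuSK TA libraries and 6 of 9 ∆Ig3-MuSK soleus libraries above every WT library. Tef rose in the soleus by 0.48 on the log2 scale (SE 0.09, adjusted p = 0.0261). The TA value of 0.21 (SE 0.07, adjusted p = 0.149) did not pass the test. The soleus call was lost without WT soleus replicate 4, 5 or 6, with log2 fold changes of 0.42 to 0.52 and adjusted p of up to 0.0648 over the 18 fits.

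Hlf, the third PAR bZIP gene, was read at lower levels: 7.29 to 14.2 CPM in WT TA (median 10.8) and 9.65 to 20.6 CPM in ∆Ig3-MuSK TA (median 15.3). Soleus libraries ranged from 4.34 to 7.65 CPM in WT (median 5.71) and from 6.88 to 15.8 CPM in ∆Ig3-MuSK (median 10.4). In the soleus 7 of 9 ∆Ig3-MuSK libraries were above every WT library, against 6 of 9 in the TA. The log2 fold change was 0.85 in the soleus (SE 0.16, adjusted p = 0.0202) and 0.48 in the TA, where the test was not passed (SE 0.13, adjusted p = 0.144). Without WT soleus replicate 5 the soleus adjusted p was 0.0514.

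Nfil3, the bZIP repressor that shares DNA sites with the PAR bZIP factors, did not rise. It ranged from 8.50 to 15.97 CPM in WT TA (median 12.0) and from 6.42 to 20.9 CPM in ∆Ig3-MuSK TA (median 9.58), with 2 ∆Ig3-MuSK libraries above and 4 below all WT libraries. Its soleus levels ranged from 9.45 to 21.5 CPM in WT (median 13.1) and from 5.88 to 11.8 CPM in ∆Ig3-MuSK (median 8.22), so that 6 WT libraries lay above every ∆Ig3-MuSK library. The soleus log2 fold change of -0.61 (SE 0.16, adjusted p = 0.0565) narrowly missed the threshold, and that of the TA was -0.12 (SE 0.20, adjusted p = 0.722). It passed in 3 of the 18 soleus fits with 1 library left out, those without WT replicate 1, WT replicate 2 or ∆Ig3-MuSK replicate 6.

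Ciart, a repressor of the ARNTL-CLOCK dimer, was the least abundant of the 9 genes and had the highest fold change in both muscles. It ranged from 1.22 to 3.14 CPM in WT TA (median 2.53) and from 3.05 to 10.7 CPM in ∆Ig3-MuSK TA (median 4.47). The soleus range was 0.535 to 2.25 CPM in WT (median 1.42) and 2.11 to 8.76 CPM in ∆Ig3-MuSK (median 3.85). In both muscles 8 of 9 ∆Ig3-MuSK libraries exceeded the highest WT library, and the ∆Ig3-MuSK groups were spread widely, with coefficients of variation of 46.8% and 52.8% in TA and soleus. The log2 fold change was 1.65 in the soleus (SE 0.29, adjusted p = 0.0164) and 1.25 in the TA (SE 0.23, adjusted p = 0.0606). The TA value missed the threshold and passed it without ∆Ig3-MuSK TA replicate 1 or without replicate 7.

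Bhlhe41 was called in the soleus and Bhlhe40, the other DEC repressor, in neither muscle. Bhlhe41 was between 19.8 and 30.2 CPM in WT soleus (median 23.5) and between 27.4 and 40.4 CPM in ∆Ig3-MuSK soleus (median 33.0), with 7 of 9 ∆Ig3-MuSK libraries above all WT libraries. It rose there by 0.45 on the log2 scale (SE 0.09, adjusted p = 0.0287). In the TA it was 65.1 to 84.7 CPM in WT (median 74.98) and 60.6 to 94.7 CPM in ∆Ig3-MuSK (median 71.4), with a log2 fold change of -0.01 (SE 0.08, adjusted p = 0.921). The difference between the muscles in this response was 0.47 on the log2 scale (SE 0.12) and did not pass the interaction test (edgeR, adjusted p = 0.0978). The soleus call was lost in 5 of the 18 fits that left out 1 library, those without WT replicate 3, 4, 5 or 6 or ∆Ig3-MuSK replicate 5. Bhlhe40 was 55.9 to 104 CPM in WT TA (median 86.4) and 56.0 to 95.5 CPM in ∆Ig3-MuSK TA (median 77.3). Its soleus level was 51.9 to 103 CPM in WT (median 78.2) and 58.6 to 115 CPM in ∆Ig3-MuSK (median 85.4). The genotypes overlapped over nearly their whole range, with log2 fold changes of -0.09 in the TA (SE 0.11, adjusted p = 0.609) and 0.10 in the soleus (SE 0.13, adjusted p = 0.723).

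Rora, which encodes an activator at ROR elements, ranged from 60.0 to 88.1 CPM in WT TA (median 75.2) and from 75.9 to 113 CPM in ∆Ig3-MuSK TA (median 84.6). In soleus libraries it ranged from 35.1 to 50.1 CPM in WT (median 40.3) and from 38.7 to 55.3 CPM in ∆Ig3-MuSK (median 46.4). The log2 fold changes of 0.31 in the TA (SE 0.09, adjusted p = 0.145) and 0.18 in the soleus (SE 0.07, adjusted p = 0.178) did not pass the test. Rora kept its direction with each library left out, from 0.27 to 0.34 in the TA and 0.15 to 0.23 in the soleus.

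Sphk2 encodes sphingosine kinase 2, which makes sphingosine 1-phosphate, and is not part of the core clock loop. It ranged from 30.9 to 43.4 CPM in WT TA (median 35.8) and from 39.6 to 61.5 CPM in ∆Ig3-MuSK TA (median 53.3). Soleus levels were 28.6 to 44.5 CPM in WT (median 31.1) and 36.6 to 67.0 CPM in ∆Ig3-MuSK (median 55.7). In both muscles 8 of 9 ∆Ig3-MuSK libraries lay above the highest WT library, as for Dbp. The log2 fold changes that led to its choice were 0.50 in the TA (SE 0.07) and 0.67 in the soleus (SE 0.11).

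**Figure D2:**
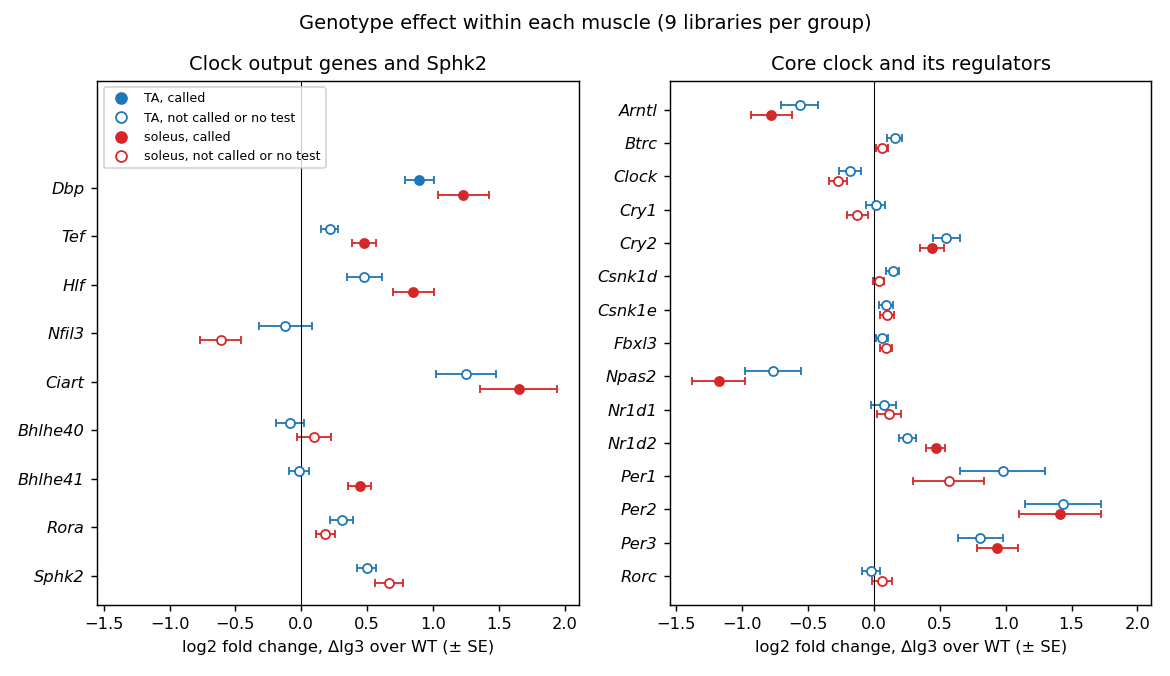
Log2 fold change of ∆Ig3-MuSK over WT (x axis, ± SE) in the TA (blue) and the soleus (red) for the 9 genes (left) and for the core clock list (right). Filled points were called; Dbp was called in both muscles, Ciart, Hlf, Tef and Bhlhe41 in the soleus, and Sphk2 was given no test.

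Promoter sequences were examined because several of these genes moved together. Of the 9 genes, 8 had a promoter in RefSeq (GRCm38.p6), 10 promoters in all, and the 250 bases before each start were searched on both strands for an E-box (CACGTG), a D-box (TTATGTAA or TTACGTAA) and a ROR element (TAGGTCA). Bhlhe40 had none listed. Ciart held 3 E-boxes, whose first bases lie 116, 58 and 44 bases before the start. Each of the 2 Tef promoters held 1 E-box, at 127 and 138 bases, and Bhlhe41 held 1 at 153 bases. An E-box was present in 6.02% of all 32851 promoters searched over the same length, and 3 or more were present in 20 of them (0.0609%). Dbp, Hlf, Rora, Sphk2 and Nfil3 held no E-box in this window, and no D-box was found in any of the 10 promoters (0.931% of all promoters hold one). The promoters with a match among the genes that rose are shown 5′ to 3′, with the E-boxes in capitals.
Ciart (chr3:95882229-95882478, minus strand): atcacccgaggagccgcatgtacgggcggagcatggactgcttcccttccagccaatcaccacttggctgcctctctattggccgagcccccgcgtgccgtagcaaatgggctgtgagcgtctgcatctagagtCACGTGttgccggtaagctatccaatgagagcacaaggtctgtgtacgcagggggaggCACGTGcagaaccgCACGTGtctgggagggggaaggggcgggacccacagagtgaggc
Tef, first start (chr15:81802423-81802672, plus strand): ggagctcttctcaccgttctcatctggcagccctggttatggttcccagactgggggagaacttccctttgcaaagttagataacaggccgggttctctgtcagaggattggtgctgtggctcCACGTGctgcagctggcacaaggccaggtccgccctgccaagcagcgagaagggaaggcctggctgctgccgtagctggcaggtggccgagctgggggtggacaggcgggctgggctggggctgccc
Tef, second start (chr15:81811164-81811413, plus strand): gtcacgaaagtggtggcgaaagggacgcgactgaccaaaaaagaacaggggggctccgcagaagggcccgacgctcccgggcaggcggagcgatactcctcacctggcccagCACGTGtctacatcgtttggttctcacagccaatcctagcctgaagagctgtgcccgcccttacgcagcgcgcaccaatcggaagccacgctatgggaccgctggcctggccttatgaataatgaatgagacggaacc
Bhlhe41 (chr6:145865421-145865670, minus strand): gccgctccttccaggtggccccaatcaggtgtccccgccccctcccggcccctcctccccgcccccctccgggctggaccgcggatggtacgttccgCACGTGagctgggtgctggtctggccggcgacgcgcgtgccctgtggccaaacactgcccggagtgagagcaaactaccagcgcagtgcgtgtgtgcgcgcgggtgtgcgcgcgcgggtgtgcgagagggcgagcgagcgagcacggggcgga
Nfil3 held the only ROR element among the 10 promoters, 12 bases before the start on the opposite strand (capitals). A ROR element was found in 2.23% of all promoters.
Nfil3 (chr13:52981040-52981289, minus strand): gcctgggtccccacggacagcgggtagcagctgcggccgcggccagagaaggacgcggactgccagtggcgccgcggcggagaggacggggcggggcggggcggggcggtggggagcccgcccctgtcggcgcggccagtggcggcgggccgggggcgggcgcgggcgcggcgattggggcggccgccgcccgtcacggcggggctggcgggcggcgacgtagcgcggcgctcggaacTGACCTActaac
A match is a description of the letters, and binding was not measured.

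The rest of the clock was described with a list of 16 core clock genes and regulators, of which 15 were tested in each muscle. In the soleus 4 of the 15 were upregulated, 2 were downregulated and 9 were not called, with a median log2 fold change of 0.09 against -0.0017 over all genes tested. By limma-voom 6 were called as well, and by DESeq2 7, with Clock added. Of 19439 genes edgeR's test called 0.952% and limma-voom 0.725%, and DESeq2 called 1.25% of 39040 genes with a read. The upregulated genes were Per2, Per3, Cry2 and Nr1d2, which encode repressors of the loop, and the downregulated genes were Arntl and Npas2, which encode its activators. Per3 ranged from 7.37 to 13.6 CPM in WT soleus (median 9.26) and from 13.8 to 29.7 CPM in ∆Ig3-MuSK soleus (median 19.6), and the ranges did not overlap, as was so in this direction for 0.0288% of 20841 genes. Its log2 fold change was 0.94 (SE 0.16, adjusted p = 0.0161). Arntl ranged from 15.6 to 28.0 CPM in WT soleus (median 24.8) and from 6.96 to 19.1 CPM in ∆Ig3-MuSK soleus (median 14.4), a log2 fold change of -0.78 (SE 0.16, adjusted p = 0.0291). Npas2, a partner of ARNTL, fell by 1.18 on the log2 scale (SE 0.20, adjusted p = 0.0164). Per2 rose by 1.41 on the log2 scale (SE 0.31, adjusted p = 0.0339), Cry2 by 0.44 (SE 0.09, adjusted p = 0.0291) and Nr1d2 by 0.47 (SE 0.07, adjusted p = 0.0134).

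In the TA 0 of the 15 core clock genes were called by edgeR's test, with 10 at an unadjusted p under 0.05, and DESeq2 called 5 (Per2, Per3 and Cry2 up, Arntl and Npas2 down). Over all genes in the TA, 24.1% of 20075 had an unadjusted p under 0.05 by edgeR's test, and DESeq2 called 0.601% of 39458. The lowest p-values there belonged to Cry2 (log2 fold change 0.55, adjusted p = 0.0606), Per2 (1.44, adjusted p = 0.0788), Per3 (0.81, adjusted p = 0.0877) and Arntl (-0.57, adjusted p = 0.135). Of 10 genes that cycle in most mouse tissues, Dbp and core clock genes included, 5 were upregulated and 1 downregulated in the soleus, with Usp2 joining those named (log2 fold change 0.59, SE 0.14, adjusted p = 0.0427). By limma-voom 5 of these were called in the soleus, without Usp2. Over all genes in the soleus, edgeR's test called 0.952% and limma-voom 0.725%. In the TA, edgeR's test and limma-voom each called 1 of the 10, Dbp, with 8 at an unadjusted p under 0.05, and DESeq2 called 5 (Arntl, Dbp, Per2, Per3 and Usp2).

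Genes known to carry D-boxes or to be PAR bZIP targets were read as a list of 12, of which 10 were tested in each muscle. In the soleus 3 were upregulated (Per2, Per3 and Nr1d2) and 7 were not called, with a median log2 fold change of 0.15. In the TA edgeR's test called 0, with a median of 0.27. There 8 of the 10 had an unadjusted p under 0.05, 6 of them higher in ∆Ig3-MuSK, against 24.1% of all genes tested. DESeq2 called 2 in the TA, Per2 and Per3, where it called 0.601% of 39458 genes with a read. Nr1d2 stood at 0.25 in the TA on the log2 scale (SE 0.06, adjusted p = 0.135). The Per3 promoter held 2 D-boxes, at 205 and 158 bases before the start, which 7 of the 32851 promoters (0.0213%) matched or exceeded. No D-box was found in this window in either Per1 promoter or in those of Nr1d1, Nr1d2 and Rora, which are on the same list. The other core clock promoters searched held none either. A D-box outside the 250 bases would not be found. The Per3 promoter is shown because Per3 was the clock gene whose level followed that of Dbp most closely, with the D-boxes in capitals.
Per3 (chr4:151044666-151044915, minus strand): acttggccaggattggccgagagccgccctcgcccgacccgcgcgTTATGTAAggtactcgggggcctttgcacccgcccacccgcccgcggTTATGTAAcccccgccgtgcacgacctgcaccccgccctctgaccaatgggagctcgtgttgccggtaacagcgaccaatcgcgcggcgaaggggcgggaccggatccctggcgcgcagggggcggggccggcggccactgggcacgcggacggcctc

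Levels were then compared between muscles in a single fit over the 36 libraries. The TA and the soleus were deposited as separate tables, so the muscle and any batch of the table cannot be told apart. In WT, 6 of the 9 genes were lower in the soleus (Bhlhe41, Tef, Hlf, Rora, Ciart and Dbp), where 27.3% of 20841 genes were lower and 57.5% differed in either direction. In ∆Ig3-MuSK 4 of the 9 were lower (Bhlhe41, Tef, Rora and Hlf), where 27.6% of all genes were lower and 56.1% differed. Bhlhe41 differed most, with log2 differences of -1.57 in WT (SE 0.09, adjusted p = 1.79e-18) and -1.10 in ∆Ig3-MuSK (SE 0.08, adjusted p = 4.12e-14). Tef followed with -1.17 in WT (SE 0.08, adjusted p = 3.78e-15) and -0.90 in ∆Ig3-MuSK (SE 0.08, adjusted p = 5.05e-12). Rora was lower by 0.88 and 0.99 on the log2 scale in WT and ∆Ig3-MuSK (SE 0.08 in both, adjusted p = 9.02e-12 and 4.21e-13). For these 3 genes the highest soleus library lay below the lowest TA library in each genotype, as was so for 13.7% of the 20841 genes in WT, 14.6% in ∆Ig3-MuSK and 10% in both.

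Hlf was lower in the soleus by 0.89 on the log2 scale in WT (SE 0.15, adjusted p = 2.82e-06) and by 0.51 in ∆Ig3-MuSK (SE 0.15, adjusted p = 0.00256), with overlapping ranges. Dbp was lower in WT soleus by 0.48 (SE 0.16, adjusted p = 0.00888), and in ∆Ig3-MuSK the difference of -0.14 (SE 0.16, adjusted p = 0.468) did not pass. Ciart behaved in the same manner, with -0.71 in WT (SE 0.28, adjusted p = 0.0253) and -0.30 in ∆Ig3-MuSK (SE 0.25, adjusted p = 0.301). The interaction p adjusted over all genes was 0.338 for Dbp and 0.504 for Ciart, so these muscle differences were not shown to depend on genotype. Bhlhe40 and Nfil3 did not pass in either genotype, with log2 differences between -0.37 and 0.11. This fit does not use the label numbers that TA and soleus libraries share. With that number as a block, over the 16 ∆Ig3-MuSK libraries with a partner, Ciart (-0.43, adjusted p = 0.00156) and Nfil3 (-0.27, adjusted p = 0.0316) were also called lower in the soleus. Sphk2 did not pass either, at -0.11 in WT (SE 0.09, adjusted p = 0.319) and 0.07 in ∆Ig3-MuSK (SE 0.09, adjusted p = 0.489).

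Per kilobase of annotated exon, which allows genes to be compared, the order in WT TA was Tef (31.0 ± 3.08 CPM per kb, SD, n = 9), Dbp (18.6 ± 3.35), Bhlhe40 (17.9 ± 3.10), Bhlhe41 (10.9 ± 0.993), Sphk2 (8.82 ± 0.812), Nfil3 (6.01 ± 1.36), Rora (5.73 ± 0.734), Hlf (1.63 ± 0.306) and Ciart (1.051 ± 0.278). Dbp and Bhlhe40 in this order differed by less than their SD, as did Nfil3 and Rora. In ∆Ig3-MuSK TA, Dbp (34.7 ± 5.69 CPM per kb) came within 1 SD of Tef (36.0 ± 3.26). In WT soleus the highest level was that of Bhlhe40 (16.6 ± 3.77 CPM per kb), followed within 1 SD by Tef (13.8 ± 1.84) and Dbp (13.3 ± 4.67). In ∆Ig3-MuSK soleus Dbp led at 31.6 ± 8.44 CPM per kb, ahead of Tef at 19.3 ± 3.31.

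The spread among libraries of a group differed between the genes. The SD of log2 CPM over the 9 libraries exceeded the median over 20841 genes for 5 of the 8 clock output genes in WT TA and for 7 of the 8 in each of the other groups. Ciart had the widest spread of the 9 in each group, with SDs of 0.42 to 0.72, against all-gene medians of 0.18 to 0.24. Rora was below the all-gene median in 3 of the 4 groups, with SDs of 0.16 to 0.20.

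Whether these genes moved together among libraries of the same genotype and muscle was examined by correlating each with Dbp in log2 CPM, over 9 libraries per group and 32 relations in all. With exact permutation tests, 10 of the 32 relations passed at an adjusted p under 0.05 by Pearson's r and 6 by Spearman's rho. By Pearson's r, Sphk2 passed in all 4 groups and Bhlhe41 in 3. By Spearman's rho, Sphk2 passed in both soleus groups and missed in WT TA (adjusted p = 0.0905) and ∆Ig3-MuSK TA (adjusted p = 0.0761). In ∆Ig3-MuSK soleus, Tef (r = 0.81, rho = 0.87, exact permutation p = 0.00486, adjusted p = 0.0173), Hlf (r = 0.84, rho = 0.88, exact permutation p = 0.00125, adjusted p = 0.0100) and Ciart (r = 0.83, rho = 0.92, exact permutation p = 0.00174, adjusted p = 0.0112) also passed. These 3 relations kept r of 0.82 (Tef), 0.86 (Hlf) and 0.95 (Ciart) without the 2 libraries farthest from the median of Dbp.

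Bhlhe41 followed Dbp in WT soleus (r = 0.91, rho = 0.90, exact permutation p = 9.43e-04, adjusted p = 0.0100, and r = 0.95 without the 2 farthest libraries). It also passed in WT TA (r = 0.82, rho = 0.80, exact permutation p = 0.00259, adjusted p = 0.0118, and 0.57 without the 2 farthest) and in ∆Ig3-MuSK soleus (r = 0.76, rho = 0.67, exact permutation p = 0.0115, adjusted p = 0.0368, and 0.50 without them). By Spearman's rho both of these missed the threshold after adjustment (0.0632 and 0.135). In ∆Ig3-MuSK TA it did not follow Dbp (r = -0.06, rho = -0.13, exact permutation p = 0.853, adjusted p = 0.942). Nfil3 had r between -0.59 and 0.04, and Rora between -0.51 and 0.46, and neither passed in any group.

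**Figure D3:**
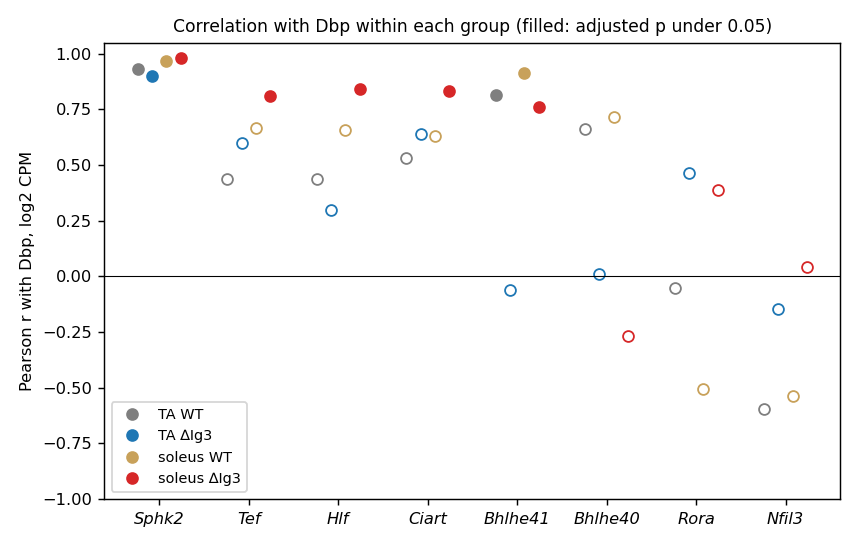
Pearson r of each gene with Dbp (y axis, log2 CPM, 9 libraries per group) in the 4 groups (colors); filled points passed the exact permutation test of r after adjustment over 32 relations. Sphk2 lies at 0.90 to 0.98 in all groups, and Nfil3 lies at or below 0.04.

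Over all 36 libraries, with each group centered on its mean, the gene most like Dbp among 20841 was Sphk2 (r = 0.95), followed by Stard3 (0.77), Gstt2 (0.74), Per3 (0.71) and Gm9176 (0.70). Ciart stood at rank 7, Tef at rank 8, Bhlhe41 at rank 9 and Hlf at rank 17, while Nfil3 (r = -0.25) was at rank 18876. Tef and Hlf were each the gene most like the other (r = 0.86). Usp2, a deubiquitinase gene that cycles in many tissues, was most like Ciart (r = 0.83), Ppp1r3c most like Nfil3 (r = 0.83) and Cacna2d1 most like Rora (r = 0.83). These correlations describe the libraries and share their depth and scaling. For Bhlhe41 and Bhlhe40 the most similar gene was an overlapping transcript on the other strand, Gm43909 (r = 0.86) and 0610040F04Rik (r = 0.77).

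Dbp and Sphk2 lie tail to tail on chromosome 7. In GRCm38, Dbp occupies chr7:45705088-45710203 on the plus strand and Sphk2 chr7:45709467-45718002 on the minus strand, and their exons share 539 bases, 18% of the exon length of Dbp and 13% of that of Sphk2. The shared stretch, chr7:45709665-45710203, is the last exon of Dbp, of which 213 bases are coding and 326 are untranslated, and all 5 annotated Dbp transcripts include it. On the Sphk2 side it is 3′ untranslated sequence of 1 of 4 annotated transcripts, and the nearest of the other transcripts ends 63 bases beyond Dbp. Sphk2 shares a further 373 exon bases with Rpl18 at its other end. Without strand information, reads from the shared stretch cannot be assigned by strand, and the counting mode and annotation release are not given in the sources used here.

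**Figure D4:**
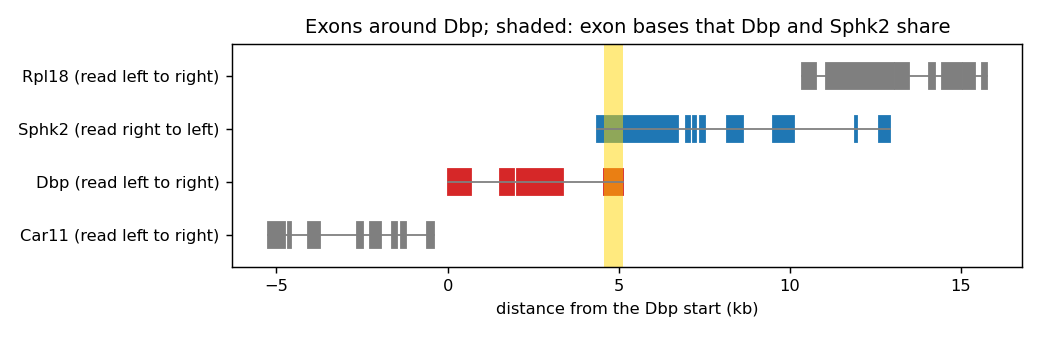
Exons of Car11, Dbp, Sphk2 and Rpl18 as blocks, by distance in kb from the Dbp start (x axis), with the direction of each gene at the left and the 539 shared exon bases of Dbp and Sphk2 shaded. The shaded stretch covers the last Dbp exon and lies inside the last Sphk2 exon.

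Within each group the Sphk2 level followed the Dbp level closely. Pearson's r in log2 CPM was 0.93 in WT TA (rho = 0.73, exact permutation p = 0.00347, adjusted p = 0.0139), 0.90 in ∆Ig3-MuSK TA (rho = 0.77, exact permutation p = 0.00215, adjusted p = 0.0115), 0.97 in WT soleus (rho = 0.88, exact permutation p = 5.57e-04, adjusted p = 0.00891) and 0.98 in ∆Ig3-MuSK soleus (rho = 0.97, exact permutation p = 1.1e-05, adjusted p = 3.53e-04). Without the 2 libraries farthest from the median of Dbp, r was 0.47, 0.67, 0.92 and 0.96 in the same order. The size of r in WT TA thus depended on those libraries, and leaving them out also narrows the range of Dbp. In CPM, Sphk2 rose by 0.312 ± 0.0477 (SE) per CPM of Dbp in WT TA and by 0.323 ± 0.0694 in ∆Ig3-MuSK TA. The slopes were 0.373 ± 0.0338 in WT soleus and 0.375 ± 0.0280 in ∆Ig3-MuSK soleus. The slopes thus lay within 1 SE of each other between genotypes, and the lines met the axis at 18.3 to 19.3 CPM of Sphk2 in the 4 groups. The SEs of these intercepts were 2.70 CPM in WT TA, 7.30 in ∆Ig3-MuSK TA, 1.42 in WT soleus and 2.73 in ∆Ig3-MuSK soleus. Dbp was at 26.8 CPM or above in every library, so the intercepts lie outside the range of the data.

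Mean Sphk2 was 15.1 CPM higher in ∆Ig3-MuSK TA, where Dbp was 48.1 CPM higher. In the soleus Sphk2 was 20.4 CPM higher and Dbp 54.7 CPM higher. These Sphk2 differences led to its choice and are given as a description. The part of reads from the shared exon in the change of Sphk2 was not tested, since the count tables do not give reads by exon.

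**Figure D5:**
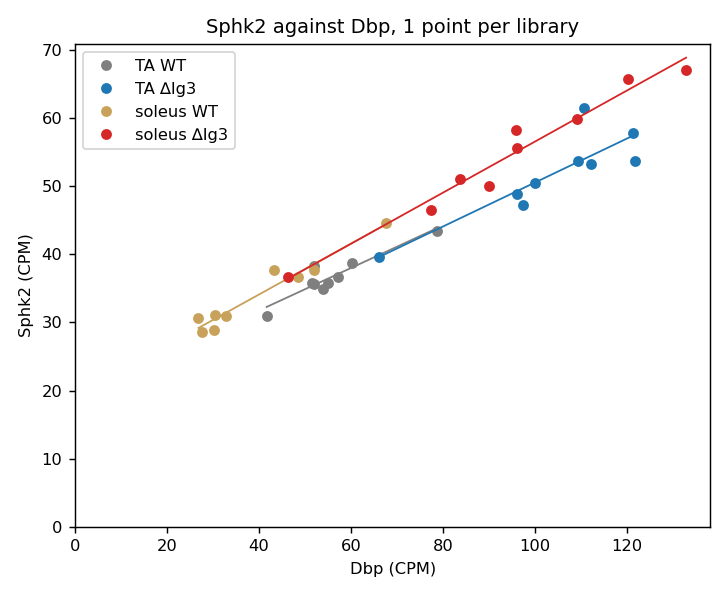
Sphk2 (y axis, CPM) against Dbp (x axis, CPM), 1 point per library, with the least-squares line of each group. The lines of both genotypes of a muscle run together, with slopes of 0.312 and 0.323 in the TA and 0.373 and 0.375 in the soleus.

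The other overlapping transcripts were examined in the same way. Gm43909 shares 1280 exon bases with Bhlhe41 (68.2% of its own length) and rose by 0.319 to 0.409 CPM per CPM of Bhlhe41. Its intercepts were -6.60 to -0.184 CPM, with SEs of 1.59 to 9.7 CPM. In the soleus its log2 fold change was 0.43 (SE 0.11, adjusted p = 0.0602), against 0.45 for Bhlhe41. Gm15511, which shares 82 bases with Rora, had a TA value of 0.58 (SE 0.17, adjusted p = 0.145) and a soleus value of 0.23 (SE 0.13, adjusted p = 0.361). 0610040F04Rik, with 118 bases shared with Bhlhe40, had 0.06 in the TA (SE 0.11, adjusted p = 0.736) and 0.02 in the soleus (SE 0.12, adjusted p = 0.952). Gm17597 shares 193 bases with Tef and averaged only 0.0951 to 0.235 CPM in the 4 groups. It was tested in the TA alone, at -0.07 (SE 0.23, adjusted p = 0.862). Pearson's r in CPM with the overlapped gene was 0.76 to 0.97 for Gm43909 and 0.71 to 0.93 for Gm15511. For 0610040F04Rik it was 0.38 to 0.98, and for Gm17597 -0.42 to 0.07. None of these transcripts was called between genotypes.

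The genes beside Dbp that do not overlap it were not called. Car11, which encodes a carbonic anhydrase-related protein and ends 405 bases before the Dbp start, had a soleus log2 fold change of 0.30 (SE 0.13, adjusted p = 0.215) and 0.14 in TA muscles (SE 0.08, adjusted p = 0.274). Rpl18, a ribosomal protein gene on the far side of Sphk2, had -0.22 in the TA (SE 0.09, adjusted p = 0.168) and -0.01 in the soleus (SE 0.05, adjusted p = 0.900). Ntn5, Sec1 and Fut2, within 50 kb, were tested in both muscles with TA values of 0.39, 0.41 and 0.45 and soleus values of 0.10, 0.09 and 0.03 on the log2 scale, with adjusted p of 0.163 or higher. Fam83e was tested in the soleus only (-0.57, SE 0.23, adjusted p = 0.183). The slope of Car11 on Dbp was 5.0e-04 to 0.0104 CPM per CPM in the 4 groups. Car11 was far less abundant than Sphk2 (mean 1.39 against 34.1 CPM in WT soleus), so their slopes in CPM are not on a like scale. Pearson's r of Car11 with Dbp in CPM was 0.01 in WT TA, 0.21 in ∆Ig3-MuSK TA, 0.52 in WT soleus and 0.42 in ∆Ig3-MuSK soleus. For Rpl18 it was -0.08, -0.06, 0.64 and -0.08 in the same order. These values of r were not tested.

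The sphingosine 1-phosphate and ceramide genes gave a further comparison for Sphk2. Of 23 such genes, 21 were tested in each muscle and 0 were called by edgeR's test in either, nor any by DESeq2 or limma-voom. At an unadjusted p under 0.05 there were 5 of the 21 in TA muscles, where 24.1% of all genes tested had such a p. In the soleus there were 7 of the 21, of which 6 were lower in ∆Ig3-MuSK, and 18.5% of all genes had such a p. The median of the tested genes of this list was 0.04 on the log2 scale in TA muscles and -0.09 in soleus muscles. Sphk1, which encodes the other sphingosine kinase, was 0.992 to 3.17 CPM in WT soleus (median 1.40) and 0.575 to 1.47 CPM in ∆Ig3-MuSK soleus (median 1.08), a log2 fold change of -0.65 (SE 0.23, adjusted p = 0.143). The soleus values of S1pr3 (-0.29), S1pr2 (-0.48) and Cers2 (-0.15), which encode receptors and a ceramide synthase, did not pass either, with adjusted p of 0.105, 0.125 and 0.129. In the TA the smallest p-values were those of Sgpl1 (0.16), Cers4 (0.15), Acer2 (0.45) and Sgpp1 (-0.14), with adjusted p of 0.168 to 0.170.

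Immediate early genes and markers of other cell types were read in the same fits. The 20 immediate early genes, rapidly induced by activity or handling, summed to 299.9 to 559 CPM in WT soleus (median 462) and 229 to 425 CPM in ∆Ig3-MuSK soleus (median 348), with 2 of 20 downregulated, Ccn1 (log2 fold change -0.76, adjusted p = 0.0219) and Egr3 (-1.56, adjusted p = 0.0459). In these soleus libraries 11 of the 20 had an unadjusted p under 0.05, DESeq2 called 4 (Ccn1, Egr2, Egr3 and Fosb) and limma-voom called 1 (Ccn1). Over all genes in the soleus, 18.5% of 19439 had an unadjusted p under 0.05 by edgeR's test, which called 0.952%. Limma-voom called 0.725% of 19439 genes and DESeq2 1.25% of 39040 genes with a read. In TA muscles 0 of the 20 were called by edgeR's test or DESeq2, with 1 at an unadjusted p under 0.05, against 24.1% of all genes. The sums there were 269 to 536 CPM in WT and 281 to 477 CPM in ∆Ig3-MuSK. The 5 neuronal markers summed to 2.05 to 3.39 CPM in WT soleus (median 2.19) and 1.96 to 4.71 CPM in ∆Ig3-MuSK soleus (median 4.03), and 1 of them, Syt1, was upregulated (0.84, SE 0.19, adjusted p = 0.0390), while DESeq2 called 4 and limma-voom 0. The 4 tendon markers summed to 257 to 674 CPM in WT soleus and 23.9 to 454 CPM in ∆Ig3-MuSK soleus, with 0 called by edgeR's test, 2 at an unadjusted p under 0.05 and 1 called by DESeq2 (Scx). Of the fiber, endothelial, fibroblast, macrophage, Schwann cell and adipocyte lists edgeR's test called 0 genes in either muscle, and DESeq2 called Kdr and Col1a1, both lower in ∆Ig3-MuSK soleus. All 9 fast-fiber markers were higher in ∆Ig3-MuSK soleus (median log2 fold change 0.27), with 2 at an unadjusted p under 0.05 by edgeR's test. In the TA 4 of the 9 were higher (median -0.07). Of the 7 slow-fiber markers 4 were higher in ∆Ig3-MuSK soleus (median 0.01). There all 5 Schwann cell and 4 adipocyte markers were higher, and all endothelial, fibroblast and macrophage markers were lower. The part of these gene groups in the clock gene differences was not tested.

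Label numbers were shared by 8 TA and soleus libraries in WT and by 8 in ∆Ig3-MuSK, and the levels of each gene were compared across muscles by that number. All 18 relations (9 genes, 2 genotypes, 8 pairs each) had a Pearson r above 0, from 0.21 to 0.89. Without the 2 pairs farthest from the median, r was below 0 for 3 of them, all in WT (Rora -0.75, Sphk2 -0.37 and Hlf -0.14), and that of Ciart in WT went from 0.86 to 0.29. By exact permutation tests 11 had an unadjusted p under 0.05, and 0 passed after adjustment, the lowest adjusted p being 0.0510. For Dbp, r was 0.77 in WT (rho = 0.69, exact permutation p = 0.0254, adjusted p = 0.0560) and 0.82 in ∆Ig3-MuSK (rho = 0.40, exact permutation p = 0.0312, adjusted p = 0.0562). Without the 2 pairs farthest from the median these became 0.08 and 0.26, so the size of r for Dbp depended on those pairs. Leaving them out also narrows the range of Dbp. Nfil3 had r of 0.81 in WT (rho = 0.86, exact permutation p = 0.00722, adjusted p = 0.0510) and 0.82 in ∆Ig3-MuSK (rho = 0.81, exact permutation p = 0.0142, adjusted p = 0.0510), with 0.78 left in both without 2 pairs.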

How the data were processed

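Members and gene lists were chosen with earlier results of these data known. The authors trimmed reads with Trimmomatic, aligned them to GRCm38 with GSNAP and counted them per gene with HTSeq. The deposited tables hold these raw counts for 51912 Ensembl IDs, 1 table per muscle; total counts were 43492062 to 78660422 per library, so counting error was small for all 9 genes except Ciart (26 to 698 counts). Symbols (51633 IDs), exon lengths and overlaps came from GENCODE M21, a GRCm38 annotation. Columns of other samples numbered 0.

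Genes were kept with filterByExpr (minimum count 10, total 15), scaled with TMM factors and tested with edgeR 4.0.16 (R 4.3.3, glmQLFTest), within each muscle for genotype and over 36 libraries for muscle and interaction, without covariates, after testing on simulated data. CPM use the TMM factors of the 36 libraries, and log2 CPM a prior count of 2. Called genes had a Benjamini-Hochberg adjusted p under 0.05 and at least a 1.2-fold change. Each replicate is 1 muscle of 1 animal. Named genes were all members, list genes called or with the 4 smallest p, tested genes within 50 kb of Dbp, and the 5 most like Dbp. Per3 sequence was added after its values were seen. Alternatives were DESeq2 1.42.0, limma-voom (limma 3.58.1), an exact permutation test, RLE and upper-quartile factors, no filter, 1 fit over 36 libraries, blocks by replicate or label number, and each library left out. The sources used here do not say whether label numbers pair TA and soleus libraries: the correlation of deviations was above 0 in all 8 pairs of each genotype and exceeded 0.1 in 5 of 8 ∆Ig3-MuSK and 2 of 8 WT pairs, short of the rule that every pair exceed 0.1, so the reported fits use no block.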

Additional observations from a re-analysis of the deposited data

Results flagged for a closer look

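Of 36 groups of 9 libraries (9 genes, 4 groups), 3 had a library set apart from the rest by a gap above Dixon's 95% critical value for 9 values; chance alone sets apart about 1 group in 20. WT TA replicate 7 had the highest Dbp level of its group, 78.8 CPM, where the next library had 60.3 CPM. ∆Ig3-MuSK TA replicate 7 had the lowest Dbp level of its group, 66.1 CPM, where the next had 96.1 CPM. The soleus libraries with the same label numbers as these 2 were also extreme for Dbp. WT soleus replicate 7 was the highest of its group (67.7 CPM), and ∆Ig3-MuSK soleus replicate 6 the lowest of its group (46.4 CPM). WT soleus replicate 9 had the highest Nfil3 level of its group, 21.5 CPM, where the next had 14.4 CPM. Without WT TA replicate 7 or ∆Ig3-MuSK TA replicate 7, Dbp was still called in the TA, and Nfil3 was not called in the soleus without WT soleus replicate 9.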

How the results depend on the processing

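In the TA the number of called genes among 8 was 1 by the reported test and also by limma-voom and with RLE factors. It was 4 in 1 fit over all 36 libraries (Ciart, Hlf and Rora gained), 3 by DESeq2 (Ciart and Hlf gained), 2 without the filter on low counts and 2 with upper-quartile factors (Ciart gained in each). Over all genes these settings called 692 (3.32%), 237 (0.601%), 10 (0.0253%) and 7 (0.0349%) in the same order, against 3 (0.0149%) by the reported test. DESeq2 and the fit without the filter took 39458 genes with a read, against 20075 in the reported test, so their shares have a larger base. The TA number was 1 to 2 with 1 library left out, and 0 with the replicate block, under which 0 of the 20075 genes tested in the TA were called (5255 at an unadjusted p under 0.05). In the soleus the number was 5 by the reported test, 6 with DESeq2 and with the replicate block (Nfil3 gained), and 2 to 6 with 1 library left out. Over all genes DESeq2 called 489 of 39040 (1.25%) and the replicate block 347 of 19439 (1.79%), against 185 of 19439 (0.952%) by the reported test. The number was 6 without WT replicate 1, WT replicate 2 or ∆Ig3-MuSK replicate 6, with 602, 416 and 201 of all genes called. The lowest soleus numbers came without WT soleus replicate 5 (2, with 22 of all genes called in place of 185), replicate 4 (3, with 34) and replicate 6 (3, with 29), and Dbp and Ciart were called in each of these fits. The interaction was called for 0 of 8 genes by the reported test and for 1, Bhlhe41, by DESeq2, which called 2.05% of 41704 genes. The numbers lower in the soleus, 6 of 9 in WT and 4 of 9 in ∆Ig3-MuSK, held in all other fits, except that with the label number as a replicate block in ∆Ig3-MuSK 6 genes were called (Ciart and Nfil3 gained). Of 32 relations with Dbp, 10 passed; with 1 library left out 6 to 11 passed. Bhlhe41 in the TA, at -0.01, reached between -0.0698 and 0.0156 on the log2 scale with 1 library left out. Deviations of WT and ∆Ig3-MuSK libraries with the same replicate number correlated at a median of -0.00 in the TA and 0.01 in the soleus, so a call lost under that block is not read as a weaker effect. For label numbers shared by TA and soleus the median was 0.0601 in WT and 0.147 in ∆Ig3-MuSK, and 3 of 8 WT and 5 of 8 ∆Ig3-MuSK TA libraries correlated best with the soleus library of their own number. Causes of these changes were not tested. The hour of collection, not given in the sources used here, and the lack of reads by exon limit what the tables can show.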
